A study of Mus musculus with 19 samples.

Results

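The genes described here are 43 ligands and receptors of axon guidance: 3 Slits and 3 Robo receptors, netrin 1 with 6 receptors, 9 semaphorins with 6 plexins and 2 neuropilins, and 6 ephrins with 7 Eph receptors. They were taken from a fixed list of names, 43 of the 21887 protein-coding genes on the mouse build GRCm38. The rule uses no measured value, but the members and the gene lists used below were chosen with earlier results of these data known. ATAC-seq, a method that reads accessible DNA through the insertions of a transposase, had been run on Prom1+ neural progenitors that were separated magnetically from the forebrain of mice at embryonic day 14. Its 19 libraries form 4 groups by their titles: 4 controls (Foxc1 WT, no diet), 4 mutants (Foxc1 hith/LacZ, no diet), 5 controls on the diet (Foxc1 WT, RA diet) and 6 mutants on the diet (Foxc1 hith/LacZ, RA diet). RA is retinoic acid, hith is a hypomorphic allele of the transcription factor gene Foxc1, and the other allele carries a LacZ insertion. The genotype label of mutant 1 reads Foxc1 WT, against its title, and its title was followed. No label ties a library to an embryo, so the p-values below measure the spread between libraries, which may be technical.

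A summit is the point of strongest signal in a peak of accessibility. Each summit was assigned by distance to the closest end (start or finish) of a protein-coding gene, up to 100 kb away. The libraries differed in length, so the main count used the best-scoring summits of each library, as many as the shortest list holds. These are called matched summits. The 43 genes received 3366 of 553128 matched summits and 10342 of all 1547369 deposited summits. Matched summits at most 200 bp apart were joined into regions that needed summits from at least 2 libraries, which gave the guidance genes 293 of 44878 regions. A gene without a matched summit at a site can still have a weaker summit there, so the full lists are given beside the matched counts.

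Axon guidance ligands steer growing axons and migrating neurons by attraction or repulsion. Slits are secreted repellents that bind Robo receptors, and netrin 1 is a secreted cue that attracts through Dcc and Neo1 and repels through the Unc5 receptors. Semaphorins signal through plexins, most class 3 members with a neuropilin as the binding partner. Ephrins are tethered to the cell surface and bind Eph receptor kinases on neighbouring cells, A ephrins by a lipid anchor and B ephrins by a transmembrane stretch. In the forebrain these systems pattern the commissures and the cortical map, and several of them also act on progenitors and on their vascular neighbours.

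The libraries were not alike in summit quality. Apart from the shortest list, mutant on the diet 4, they held 48323 to 122591 deposited summits, and sequencing depth itself is unknown. The median matched score, a −log10 q value, was 88.8 and 104.7 in mutants 1 and 2 but 34.9 and 10.7 in mutants 3 and 4, and 7.33 in mutant on the diet 4. Mutants 3 and 4 also carried the most matched summits at the guidance genes, 194 and 201, where the other 17 libraries had 167 to 186. Differences that use the mutant group are therefore also given without mutants 3 and 4. Of 12 radial glia and neural stem cell markers, 8 had a matched summit within 1 kb of an end in every library and none lacked one in all libraries. Their summed matched summits ranged from 53 to 59 in controls, 54 to 66 in mutants, 60 to 62 in controls on the diet and 57 to 62 in mutants on the diet. Among these markers, Pax6 had an end summit in only 1 library, Prom1, the marker used for the separation, in 13, and Nes and Hes1 in 18. Intermediate progenitor markers had such a summit in every library at 3 of 6 genes (16 to 26 summed summits per library). Neuronal markers had such a summit in every library at 5 of 16 genes (43 to 57 summed summits per library), endothelial markers at 1 of 9 (6 to 14, with Tek, Tie1 and Cldn5 at 0 assigned matched summits in every library, but Kdr with an end summit in 19 libraries and Erg in 17, and Cdh5 at a mean of 2.68 matched summits). Mural (1 to 6), meningeal (11 to 17, with Col3a1 and Lum at 0 but Col1a1 with an end summit in 18 libraries and Foxd1 in 15), microglial (6 to 13) and erythroid (2 to 6) lists had no gene with an end summit in every library. Even so, Kcnj8 of the mural list had one in 15 libraries, Spi1 of the microglial list in 18 and Epor of the erythroid list in 11. What part other cell types had in the counts below was not tested, and in bulk libraries fewer cells with an open site and weaker opening per cell cannot be told apart.

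Guidance genes were long, and most of their open sites lay away from the ends. Their median length was 155.453 kb, against 17.169 kb over all genes, and they held 6.81 regions per gene against 1.65. Of their 293 regions, 42 (14.3%) lay within 1 kb of an end, 52 (17.7%) between 1 and 10 kb, and 199 (67.9%) between 10 and 100 kb. Over all regions within 100 kb of a gene the same shares were 32.7%, 21.3% and 46.0%. The body of the assigned gene held 191 of the 293. A summit was present in all 19 libraries in 70 regions (23.9%, against 31.3% over all genes), in 10 to 18 libraries in 94 and in 2 to 9 libraries in 129. Split by place, 14 of 42 end regions (33.3%) were open in every library against 53.7% over all genes. For distal regions it was 56 of 251 (22.3%) against 20.4%. End regions, the kind more often open in every library, were also a smaller part of the guidance regions (14.3% against 32.7%). The lower total share thus reflects the mix of regions as well as the end regions themselves. These shares describe a chosen list and carry no test.

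Gene ends divided the families. An assigned matched summit within 1 kb of an end was present in every library at 15 genes (34.9%, against 29.7% of all genes). It was present in no library at 6, where 47.0% of all genes had none. Counting any matched summit within 1 kb, also one nearer to another gene, the 15 (34.9%) stood against 36.6% of all genes. All 7 Eph receptors of the list were in the set of 15: Epha3, Epha4, Epha5, Epha7, Ephb1, Ephb2 and Ephb3. The others were the netrin receptors Unc5b, Unc5c and Unc5d, the transmembrane semaphorins Sema5a and Sema5b, the plexin Plxna2, and the B ephrins Efnb1 and Efnb2. Among ligands 4 of 19 were in it and among receptors 11 of 24. The 6 without a matched end summit were the ligands Slit1, Slit2 and Sema3a and the receptors Robo3, Unc5a and Plxnb2. No Slit, Robo, class 3 semaphorin, neuropilin or A ephrin was open at an end in all 19 libraries, although Sema3c and Sema3d missed by 1 library.

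**Figure D1:**
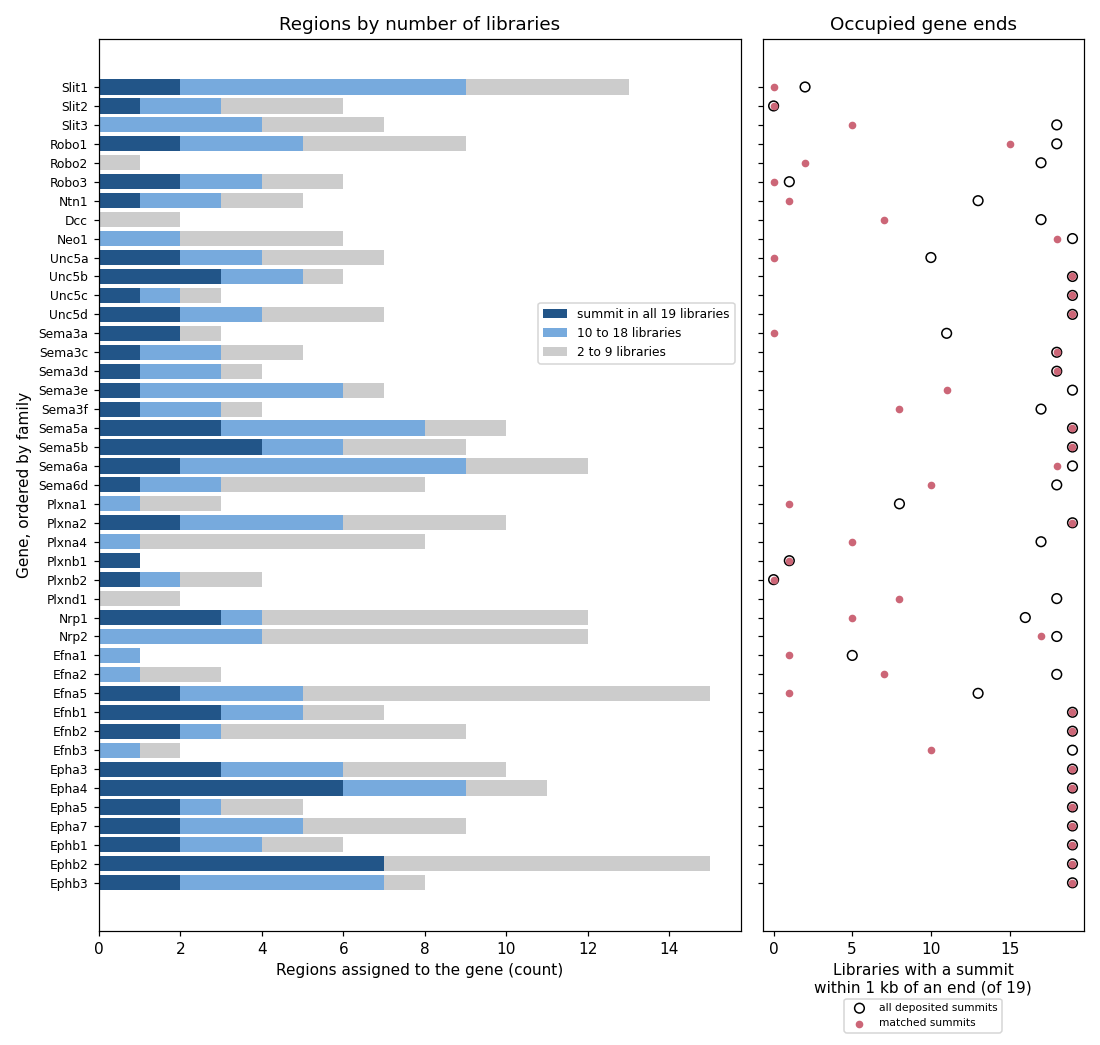
Left, number of regions assigned to each of the 43 genes, ordered by family, with colour for the number of libraries that have a summit there. Right, number of the 19 libraries with a summit that is assigned to the gene and within 1 kb of either end, filled for matched and open for all deposited summits; the 7 Eph receptors stand at 19, and Slit2 and Plxnb2 at 0 in both counts.

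With all deposited summits, 19 of the 43 genes had an end summit in every library and 27 in at least 18. The shortest list, mutant on the diet 4, had one at 22 genes, and the other 18 libraries at 33 to 38. Counting summits assigned to the gene, Slit2 and Plxnb2 kept 0 libraries (in 4 libraries a deposited summit nearer to another gene lay within 1 kb of a Plxnb2 end), Plxnb1 had 1, Robo3 had 1 and Slit1 had 2. Dcc, the attractive netrin receptor, went from 7 libraries to 17, Robo2 from 2 to 17 and Slit3 from 5 to 18. The low matched counts of these 3 genes thus stood beside weaker summits in most libraries, and that of Slit2 did not.

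Listed transcription starts gave another view, because an annotated gene end need not be the start in use. RefSeq promoter windows (GRCm38.p6, 250 bases before to 50 after a start) were found for 34 of the 43 genes, with 40 starts. A matched summit lay within 1 kb of a listed start in every library at 19 of 34 genes (55.9%), against 6988 of 17492 genes (39.9%), and in no library at 2 (5.88%), against 41.4%. The 5 promoters of Slit2, Robo1, Robo2, Plxnb1 and Plxnb2 that were open in all 19 libraries lay more than 1 kb inside their genes. The distance to the nearer gene end was 1864 bp for Slit2, 1587 bp for Plxnb1 and 1230 bp for Plxnb2, but 384342 bp for Robo1 and 519849 bp for Robo2. Slit2 and Plxnb2, which lacked an end summit in every library, were thus open at a listed start in every library.

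The 6 windows printed here show this contrast, with CG dinucleotides in capitals. A start is called open where a matched summit lies within 1 kb of it. Ephb3 and Efnb2 were open at the gene end in all libraries, Slit2 and the inner start of Robo2 were open inside the gene in all libraries, and the outer start of Robo2 and the listed start of Sema3a were not. Each is written 5′ to 3′ on the strand of the gene.
Ephb3, chr16:21204545-21204844, plus strand: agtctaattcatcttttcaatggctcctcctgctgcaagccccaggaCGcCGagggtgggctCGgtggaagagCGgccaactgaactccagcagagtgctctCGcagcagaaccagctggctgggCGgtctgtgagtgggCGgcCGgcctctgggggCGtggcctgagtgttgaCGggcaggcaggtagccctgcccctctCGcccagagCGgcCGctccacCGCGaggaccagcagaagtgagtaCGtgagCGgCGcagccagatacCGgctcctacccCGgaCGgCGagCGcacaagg
Efnb2, chr8:8661193-8661492, minus strand: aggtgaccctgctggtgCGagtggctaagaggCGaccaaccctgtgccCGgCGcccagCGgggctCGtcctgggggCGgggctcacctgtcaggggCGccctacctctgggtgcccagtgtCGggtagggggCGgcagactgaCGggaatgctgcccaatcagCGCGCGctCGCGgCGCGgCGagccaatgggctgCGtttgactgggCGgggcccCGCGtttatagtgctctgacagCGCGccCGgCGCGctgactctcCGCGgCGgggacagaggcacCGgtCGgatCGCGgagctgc
Slit2, chr5:47982905-47983204, plus strand: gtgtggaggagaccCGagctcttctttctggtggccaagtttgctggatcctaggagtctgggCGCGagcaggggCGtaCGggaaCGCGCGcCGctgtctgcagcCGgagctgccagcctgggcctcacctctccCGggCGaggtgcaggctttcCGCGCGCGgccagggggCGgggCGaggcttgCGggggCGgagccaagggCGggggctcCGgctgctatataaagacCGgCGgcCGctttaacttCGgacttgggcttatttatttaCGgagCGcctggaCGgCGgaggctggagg
Robo2 inner start, chr16:74411776-74412075, minus strand: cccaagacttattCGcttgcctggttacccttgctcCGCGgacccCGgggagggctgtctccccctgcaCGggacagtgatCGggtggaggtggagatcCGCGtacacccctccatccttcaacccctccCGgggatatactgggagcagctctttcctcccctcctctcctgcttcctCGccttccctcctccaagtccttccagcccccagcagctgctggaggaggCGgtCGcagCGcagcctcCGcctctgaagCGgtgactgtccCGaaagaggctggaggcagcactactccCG
Robo2 outer start, chr16:75447244-75447543, minus strand: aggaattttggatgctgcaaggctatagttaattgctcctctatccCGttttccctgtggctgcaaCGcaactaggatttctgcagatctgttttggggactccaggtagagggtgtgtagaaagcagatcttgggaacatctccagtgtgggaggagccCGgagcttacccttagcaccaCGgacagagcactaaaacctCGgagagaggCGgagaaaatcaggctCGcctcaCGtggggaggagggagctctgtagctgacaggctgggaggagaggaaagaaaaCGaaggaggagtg
Sema3a, chr5:13396534-13396833, plus strand: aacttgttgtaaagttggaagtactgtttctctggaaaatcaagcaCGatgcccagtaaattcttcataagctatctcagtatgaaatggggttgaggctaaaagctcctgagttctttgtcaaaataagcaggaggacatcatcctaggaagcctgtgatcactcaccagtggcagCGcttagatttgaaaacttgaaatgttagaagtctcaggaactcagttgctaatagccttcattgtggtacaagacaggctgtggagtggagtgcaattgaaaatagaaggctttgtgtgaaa

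The printed windows differ in CG content. Efnb2 held 35 CG dinucleotides and 72.3% G and C, Slit2 held 30 and 68%, Ephb3 held 23 and 66.7%, and the inner start of Robo2 held 17 and 65%. The outer start of Robo2 held 9 and 53.3%, and Sema3a held 2 and 41.3%. The outer Robo2 start had a matched summit within 1 kb in 2 libraries (17 with all deposited summits), and a further start between the outer and inner ones had 0 (17 deposited). The Sema3a start had 0 in both counts. Relative to the start, the median summit lay at −119 bp at Ephb3, −146 bp at Efnb2 and −47.5 bp at Slit2, inside the printed windows, and at 52 bp at the inner Robo2 start, just past the window.

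The printed windows are examples, and CG-rich windows of guidance genes were not always open. The 20 starts open in every library held 14 to 36 CG dinucleotides, with the lowest at Efnb1 and Ephb1 (14) and Robo1 (15). Starts with as many that were open in few or no libraries included Robo3 (17, 0 libraries), Efna5 (38, 1 library), Efna2 (31, 2 libraries) and Slit3 (41, 5 libraries). Others were the outer Efna1 start (20, 1 library), a further Plxnb2 start (15, 2 libraries), Nrp1 (14, 4 libraries) and Unc5a (37, 6 libraries). Over the 40 starts the median was 23 CG dinucleotides and 65.7% G and C, against 13 and 56.3% over 21263 starts of all genes. The GC box GGGCGG, searched on both strands, was present in 67.5% of the guidance windows and 46.2% of all windows. The CCAAT box CCAAT was in 22.5% against 38.2% and the TATA box TATAA in 7.5% against 21.9%. The SOX core ACAAT was in 10% against 27.7%, the E-box CAGCTG in 5% against 15.6%, the RBPJ word TGGGAA in 22.5% against 24.5% and the nuclear receptor half-site AGGTCA in 10% against 14.7%. Over all genes, as a description, TATAA was in 10.9% of starts with a summit in every library and in 35.4% of those with none. GGGCGG was in 70.4% and 17.3%. CCAAT, rarer in guidance windows, was in 43.3% and 38.1%. Among the 20 guidance starts open in every library, GGGCGG was in 60% and TATAA in 10%, against 67.5% and 7.5% of all 40.

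**Figure D2:**
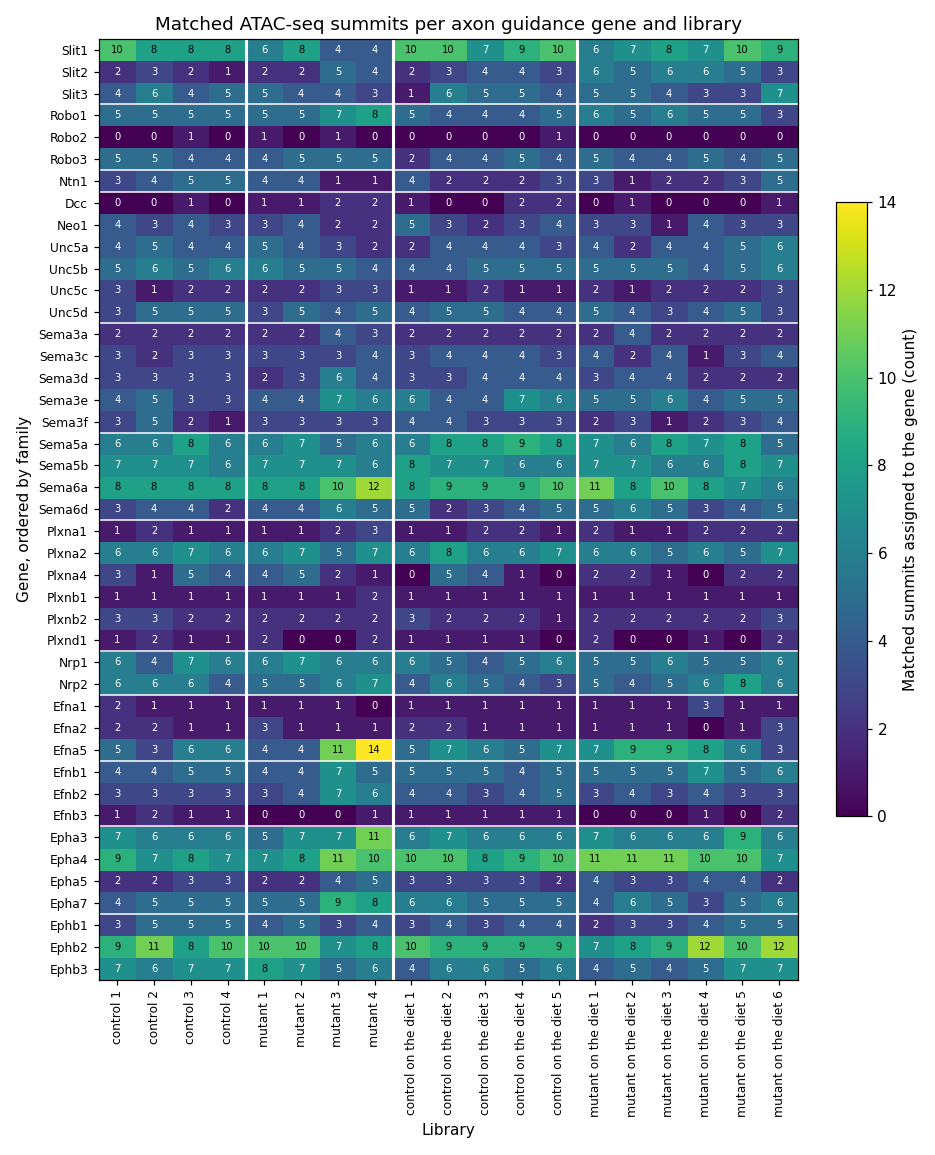
Number of matched summits assigned to each of the 43 guidance genes (rows, by family) in each of the 19 libraries (columns, by group); the colour scale and the printed number give the count. Ephb2, Epha4, Sema6a and Slit1 are the rows with the highest means, and Efna5 reaches 14 in mutant 4.

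Among the secreted Slit repellents, Slit1 (chromosome 19, 41597824 to 41747275) had the most matched summits, a mean of 7.84 per library. It had 10, 8, 8 and 8 in controls, 6, 8, 4 and 4 in mutants, 10, 10, 7, 9 and 10 in controls on the diet and 6, 7, 8, 7, 10 and 9 in mutants on the diet. Of its 13 regions 12 lay inside the gene, and 2 were open in every library, at 8875 bp and 1057 bp from the nearer end. The second is just outside the 1 kb that defines an end site. Slit2 (chromosome 5, 47981291 to 48307735) had the fewest, a mean of 3.58. Its single region open in every library was the one at the listed start, and the other 5 were inside the gene. Slit3 had a mean of 4.37, with no region open in every library.

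The Robo receptors differed most in where their summits lay. Robo1 had a mean of 5.11 assigned matched summits and 2 of 9 regions open in every library. Robo3, which is known for its part in midline crossing, had 4.37 and 2 of 6. Robo2 had 0.21, with a summit only in control 3, mutants 1 and 3 and control on the diet 5. That value follows from the 100 kb limit, because Robo2 spans 1555.47 kb (chromosome 16, 73891976 to 75447443). Its gene body held a mean of 14.8 matched summits, 14.6 of them over 100 kb from both ends, in 26 regions of which 5 were open in every library. Robo1 (1019.97 kb) held 13.9 in its body, 10.8 of them beyond that limit in 14 regions, 4 of which were open in every library.

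**Figure D3:**
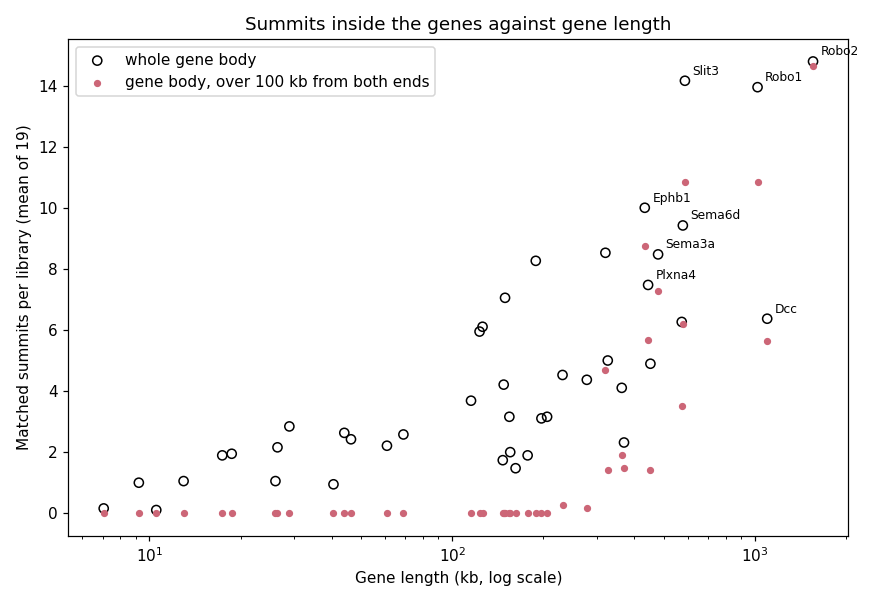
Matched summits inside each gene, as the mean over the 19 libraries, against gene length on a log axis; open circles count the whole gene body and filled points only summits over 100 kb from both ends. Robo2, Slit3 and Robo1 are the highest, with 14.8, 14.2 and 13.9 summits in the body.

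Other long genes had the same feature. Slit3 held a mean of 14.2 matched summits in its body with 10.8 beyond the limit, Ephb1 10 with 8.74, Sema6d 9.42 with 6.21, Sema3a 8.47 with 7.26, Plxna4 7.47 with 5.68 and Dcc 6.37 with 5.63. At Ephb1, 5 of the 11 regions beyond the limit were open in every library, and at Dcc 3 of 10. The counts assigned by the nearest end thus leave out most of the sites inside these genes. A count over the gene body and 5 kb on both sides was run as an alternative.

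Netrin 1 itself (Ntn1) had 5 regions, of which 1 was open in every library, 12992 bp outside the gene. It had 3, 4, 5 and 5 matched summits in controls, 4, 4, 1 and 1 in mutants, 4, 2, 2, 2 and 3 in controls on the diet and 3, 1, 2, 2, 3 and 5 in mutants on the diet. Mutants 3 and 4 were the low ones of their group, and mutant on the diet 2 was as low. Among its receptors Unc5b had the most matched summits, a mean of 5.00 with 3 of 6 regions open in every library, and Dcc the fewest, 0.74. Unc5c had 1.89, Unc5d 4.26, Unc5a 3.84 and Neo1, a relative of Dcc, 3.11. The best summit of Unc5d had a median rank of 4480 among the matched summits of a library, and that of Dcc 23488.5.

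Among class 3 semaphorins, which are secreted, Sema3e had the most matched summits (mean 4.89) and Sema3a the fewest (2.26). Sema3a had 2 matched summits in 16 of 19 libraries, from 2 distal regions open in every library at 74072 bp and 25679 bp from its nearer end. The transmembrane semaphorins Sema6a (mean 8.68 in 12 regions), Sema5a (6.84 in 10) and Sema5b (6.79 in 9) had more. Sema6d, also transmembrane, had 4.16 in 8 regions, fewer summits than Sema3e. Sema5b varied least of the transmembrane semaphorins, with 6 to 8 matched summits in every library and 4 regions open in all 19. One of those was at its end, and the other 3 lay 46880, 55701 and 49943 bp from the nearer end, inside the gene.

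Plexins, the semaphorin receptors, had lower means than the transmembrane semaphorins apart from Plxna2. Plxna2 had a mean of 6.21 matched summits in 10 regions, 2 of them open in every library. Plxna4 had 2.32 (in 8 regions), Plxnb2 2.16, Plxna1 1.53, Plxnb1 1.05 and Plxnd1 0.95. Plxnb1 had a single region, open in every library and 1868 bp from its end. Inside Plxna1, a mean of 2.00 of its 2.42 matched summits per library lay nearer to the end of another gene and were not assigned to it. The neuropilins had 12 regions each, with a mean of 5.58 at Nrp1 and 5.32 at Nrp2. All 3 Nrp1 regions open in every library lay outside the gene, at 3447, 23620 and 29197 bp beyond its end, whereas Nrp2 had none open in every library.

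Ephrin A5 (Efna5) had the most matched summits of the A ephrins, a mean of 6.58 in 15 regions, and the widest range of the 43 genes. It had 5, 3, 6 and 6 in controls, 4, 4, 11 and 14 in mutants, 5, 7, 6, 5 and 7 in controls on the diet and 7, 9, 9, 8, 6 and 3 in mutants on the diet. Mutants 3 and 4 stood above all other libraries. Ephrin A1 (Efna1) had the fewest, 1.11, and its single region at the inner listed start had a matched summit in 18 libraries and a deposited one in 18. Of the B ephrins, Efnb1 had a mean of 5.00, Efnb2 3.79 and Efnb3 0.74. Efnb1, on the X chromosome, is a gene of 12.962 kb and had 3 end regions.

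Among the families of these 43 genes, the 7 listed Eph receptors were the most uniformly open. Of 35 EphA regions 13 were open in every library, and of 29 EphB regions 11, which is 24 of the 70 such regions of all guidance genes. Ephb2 (chromosome 4, 136647536 to 136836326) had the highest mean, 9.32, with 7 to 12 matched summits per library and 15 regions, 7 of them open in every library. Of those 7, 1 was at the end and 6 were inside the gene, 19421 to 87026 bp from the nearer end. Epha4 (chromosome 1, 77367182 to 77515107) had 9.16, with 7 to 11 per library and 6 of 11 regions open in every library. Ephb3 had 5.89 and the best-scoring summit of the 43 genes, with a median rank of 264 among the matched summits of a library, at its start. Slit1 came next of the 43 genes with a median best rank of 971. Epha3 had 1140 and Epha7 had 1728, the latter also at the end. Epha5 had the lowest mean of the EphA genes, 3.00, and Ephb1 of the EphB genes, 3.89.

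The comparison of mutant with control asks whether accessibility at these genes goes with the loss of Foxc1 function. Per gene, log2(matched summits + 0.5) was fitted with limma over 10826 genes with a mean of at least 1, which took in 39 of the 43 members and left out Robo2, Dcc, Plxnd1 and Efnb3. Benjamini-Hochberg adjustment ran over all 10826. Of these genes, 3261 had no spread inside any group, and no fitted member was among them. They enter the shares, calls and medians given below for all genes, which are therefore not a like-for-like background for the members. No member passed an adjusted p of 0.05, and no gene did (0% called). At an unadjusted p under 0.05 there were 3 members, against 5.7% of all genes: Efnb2 and Epha7 with more summits and Slit1 with fewer. Of the 39, 22 had a higher mean in mutants and 16 a lower one, with a median log2 difference of 0.11 where the median of all genes was 0. Without mutants 3 and 4, 18 were higher and 14 lower, with a median of 0.

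For Slit1 the difference was −0.63 ± 0.19 (SE), limma adjusted p = 0.671, from a mean of 8.5 ± 1 (SD, n = 4) in controls to 5.5 ± 1.91 (SD, n = 4) in mutants. Mutant 2 had 8 summits, inside the control range. Efnb2, a ligand with roles in vessels and in cortical progenitors, had 3, 3, 3 and 3 in controls, 3, 4, 7 and 6 in mutants, 4, 4, 3, 4 and 5 in controls on the diet and 3, 4, 3, 4, 3 and 3 in mutants on the diet. Its difference was 0.59 ± 0.19 (SE), with the same limma adjusted p of 0.671. Epha7 had 4, 5, 5 and 5 in controls, 5, 5, 9 and 8 in mutants, 6, 6, 5, 5 and 5 in controls on the diet and 4, 6, 5, 3, 5 and 6 in mutants on the diet. Its difference was 0.43 ± 0.20 (SE), limma adjusted p = 0.793. Groups overlapped or touched for all 3 genes, and mutants 3 and 4 lay furthest from the controls each time.

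Without mutants 3 and 4 the differences were −0.27 for Slit1, 0.18 for Efnb2, 0.07 for Epha7 and −0.05 for Ntn1, which had −0.85 with them. Then 0 members were under an unadjusted limma p of 0.05, and every adjusted p of these 4 genes was 1. The pair that remains includes mutant 1, whose genotype label reads Foxc1 WT. Without mutant 1 alone, 8 members were under an unadjusted limma p of 0.05 and 0 under an adjusted one. Leaving out any 1 library gave 2 to 8. Sema3e had a difference of 0.43 ± 0.20 (SE) that was 0.29 without mutant 3 and 0.11 without mutants 3 and 4, and mutants 1 and 2, at 4 each, were inside the control range. Efna1 had −0.58 ± 0.34 (SE), and −0.18 without mutant 4. In the full lists Efnb2 was at −0.042 and Efna1 at 0.16, so their directions turned.

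**Figure D4:**
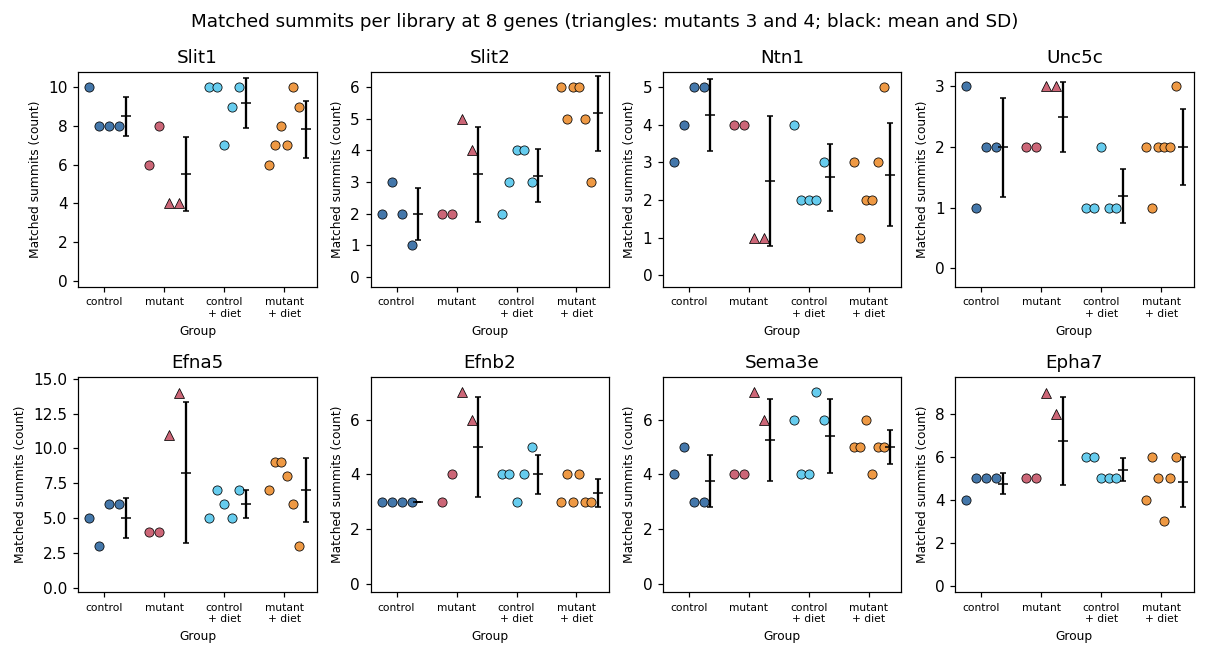
Matched summits per library at 8 guidance genes in the 4 groups, with 1 point per library and the group mean ± SD in black at the right of each group; triangles are mutants 3 and 4. At Slit1, Ntn1, Efna5, Efnb2 and Epha7 the triangles lie at the extremes of the mutant group, and the mutants on the diet lie at 3 to 6 for Slit2.

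Control on the diet against control asks what retinoic acid does at these genes with Foxc1 intact. No member and no gene passed the adjusted threshold (0% called), and 1 member, Sema3e, was under an unadjusted limma p of 0.05, against 4.26% of all genes. Sema3e had 4, 5, 3 and 3 in controls, 4, 4, 7 and 6 in mutants, 6, 4, 4, 7 and 6 in controls on the diet and 5, 5, 6, 4, 5 and 5 in mutants on the diet. Its difference was 0.47 ± 0.19 (SE), limma adjusted p = 1, and the groups overlapped. It was −0.41 with all deposited summits and −0.11 with shorter lists, the best-scoring 0.5 of the matched summits, so the direction turned. The count of members under an unadjusted p of 0.05 was 0 without control on the diet 5 and 5 without control 2, control on the diet 3 or mutant on the diet 6. Of the fitted members, 13 of 18 ligands had a higher mean on the diet and 4 a lower one (median 0.17), whereas 5 of 21 receptors were higher and 15 lower (median −0.12). Over all genes 2780 were higher and 3388 lower. The difference between ligands and receptors was not tested, and the further guidance genes described last had 4 of 15 ligands higher and 5 lower, and 5 of 10 receptors higher and 3 lower. The receptor with the smallest p was Unc5c (−0.53 ± 0.25, SE, limma adjusted p = 1), followed by Unc5b (−0.24 ± 0.11, SE). The split of ligands and receptors was not seen for mutant on the diet against mutant. There 8 of 18 ligands were higher and 10 lower, and 8 of 21 receptors were higher and 13 lower.

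Mutant on the diet against mutant asks whether the diet moves the mutants. No member passed, where 2 of all genes did (0.0185% called), and 4 members were under an unadjusted limma p of 0.05, against 6.82% of all genes. Slit1 had a difference of 0.51 ± 0.17 (SE) with a limma adjusted p of 0.431, Slit2 0.65 ± 0.27 (SE), Efnb2 −0.47 ± 0.17 (SE) and Epha7 −0.43 ± 0.18 (SE), the other adjusted p-values being 0.659, 0.507 and 0.656. This comparison shares the mutants with the first one. Without mutants 3 and 4 the values were 0.15 for Slit1, −0.06 for Efnb2 and −0.08 for Epha7, but 1.15 for Slit2 (limma adjusted p = 0.231). Of the 39 fitted members, 16 were higher and 23 lower (median −0.07), and 18 and 19 (median 0) without mutants 3 and 4. Then 6 members were under an unadjusted p of 0.05, and leaving out 1 library gave 2 (without mutant 4) to 6 (without mutant 1 or mutant on the diet 6). In the full lists Slit1 was at −0.58 and Slit2 at −0.44, and with the shorter lists Slit2 was at −0.094 and Efnb2 at 0.37, so these directions turned.

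Mutant on the diet against control on the diet asks what genotype does when both have the diet. No member passed, where 3 of all genes did (0.0277% called), and 2 members were under an unadjusted limma p of 0.05, against 3.05% of all genes. Slit2 had 2, 3, 2 and 1 in controls, 2, 2, 5 and 4 in mutants, 2, 3, 4, 4 and 3 in controls on the diet and 6, 5, 6, 6, 5 and 3 in mutants on the diet. Its difference was 0.62 ± 0.26 (SE), limma adjusted p = 1, with mutant on the diet 6 the only library of its group inside the range of the controls on the diet. Unc5c had 1, 1, 2, 1 and 1 in controls on the diet and 2, 1, 2, 2, 2 and 3 in mutants on the diet, a difference of 0.55 ± 0.23 (SE), limma adjusted p = 1. With more summits Nrp2 (0.33) came next by p, and with fewer the first were Plxna2 (−0.16), Sema3f (−0.45) and Sema3d (−0.34); none passed. In the full lists Unc5c was at −0.47, Nrp2 at −0.27 and Slit2 near 0, and with the shorter lists Slit2 was at −0.29 and Plxna2 at 0.067, so the directions of Unc5c and Nrp2, and of Slit2 and Plxna2 with the shorter lists, turned. Leaving out 1 library gave 1 to 3 members under an unadjusted p of 0.05.

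The interaction of genotype and diet, which tests whether the diet differs in its effect between genotypes, called 1 gene of 10826 (0.00924% called) and no member. At an unadjusted limma p under 0.05 there were 2 members, against 3.49% of all genes. Efnb2 had an interaction of −0.82 ± 0.25 (SE) and Epha7 of −0.60 ± 0.26 (SE), both with a limma adjusted p of 1. Without mutants 3 and 4 they were −0.41 and −0.24, and 0 members were under an unadjusted p of 0.05. Leaving out 1 library gave 1 to 4 members.

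**Figure D5:**
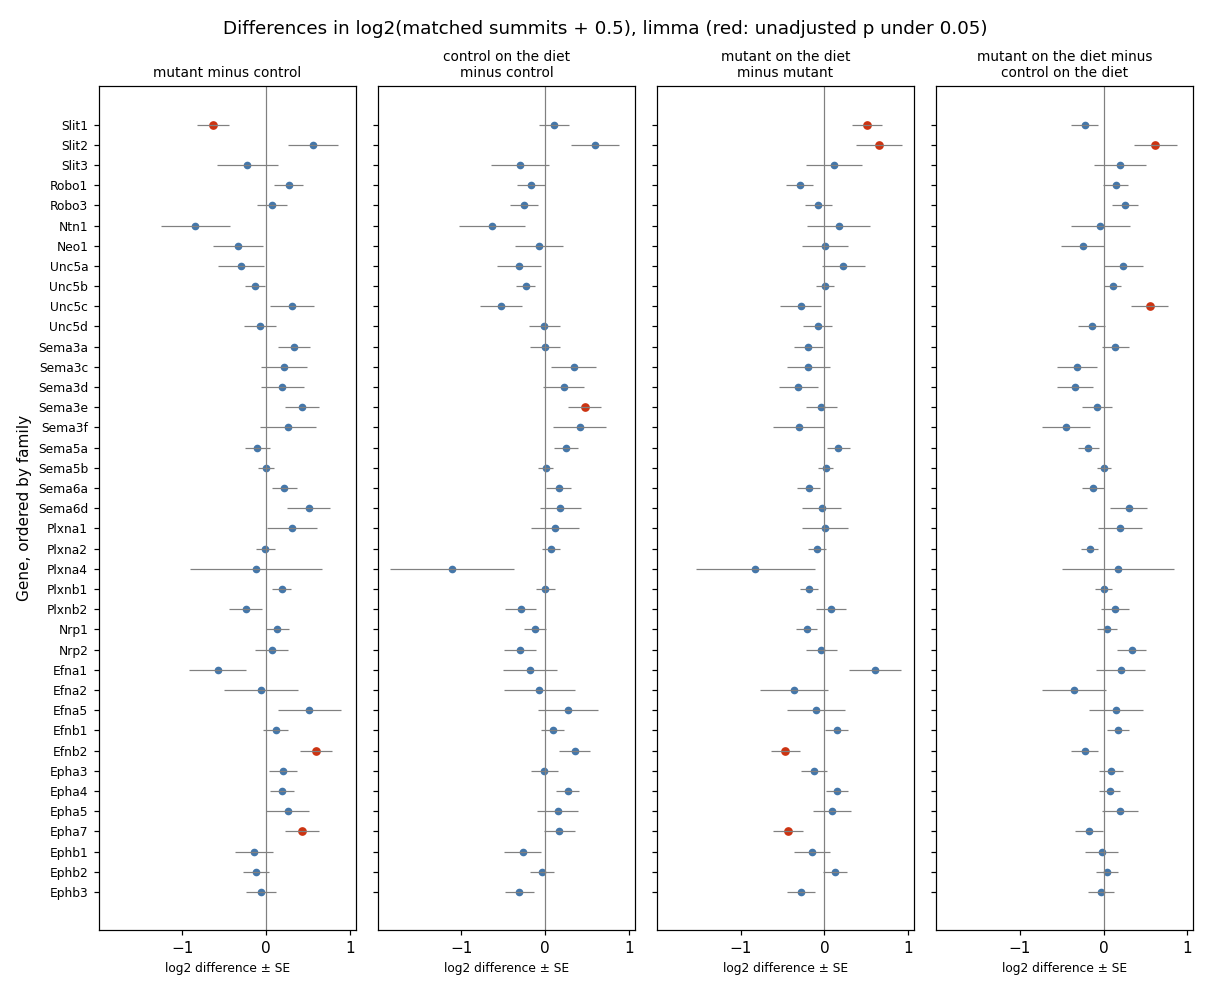
Log2 differences with their SE from limma for the 39 fitted guidance genes in 4 comparisons, on the scale of log2(matched summits + 0.5); red points have an unadjusted p under 0.05. No point passed after adjustment over 10826 genes, and Slit1, Efnb2 and Epha7 are red in both panels that use the mutant group.

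Single regions were compared by the presence of a matched summit in a library, by Fisher's exact test (two-sided) adjusted over all 44878 regions. No region of any gene passed in any of the 4 comparisons (0% called in each), and the adjusted p was 1 throughout. At these group sizes a single region could not pass this adjustment, even with a summit in every library of 1 group and in none of the other. The lack of calls thus does not show that the regions were alike. The smallest p that these group sizes allow is 0.0286 for mutant against control, 0.00794 for control on the diet against control, 0.00476 for mutant on the diet against mutant and 0.00216 for mutant on the diet against control on the diet. None of the 293 guidance regions had a summit in every library of 1 group and in none of the other, where 0.152%, 0.401%, 0.12% and 0.0178% of all regions did in that order. At an unadjusted exact p under 0.05 the guidance genes had 0 regions for mutant against control (0.152% of all regions), 10 for control on the diet against control (2.62%), 4 for mutant on the diet against mutant (1.21%) and 3 for mutant on the diet against control on the diet (0.305%). Leaving out 1 library moved these counts. The first was 7 without mutant 2, all 7 then with a summit in every library of 1 group and in none of the other. The next ran from 0 (without control on the diet 2 or 4) to 10, the third from 2 (without mutant 4) to 12 (without mutant on the diet 6) and the last from 3 to 5.

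The 3 regions of the last comparison shared an unadjusted exact p of 0.0152. A region inside Slit2, chr5:48060880-48060976 and 79637 bp from the nearer end, had a matched summit in 0 of 4 controls, 1 of 4 mutants, 0 of 5 controls on the diet and 5 of 6 mutants on the diet. A second one about as far inside the gene, chr5:48058722-48058864, had 0, 1, 2 and 5, and another at 4033 bp, chr5:47985168-47985481, had 1, 2, 4 and 6. These 3 regions hold the higher Slit2 counts on the diet. With all deposited summits the first region was open in 3, 2, 3 and 5 libraries, so the groups were closer in the full lists.

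The other 2 regions went the opposite way. A region beside Efnb3, chr11:69553059-69553174 and 976 bp from its end, had matched summits in 4 of 4 controls, 1 of 4 mutants, 5 of 5 controls on the diet and 1 of 6 mutants on the diet. With all deposited summits it was open in 4, 1, 5 and 5, so the low count in mutants on the diet came from summits that were present but ranked too low for the matched set. A region inside Epha7, chr4:28815018-28815182 and 2034 bp from its end, had 3, 4, 5 and 1, and 4, 4, 5 and 4 with all deposited summits. This region was also under 0.05 for mutant on the diet against mutant (unadjusted exact p = 0.0476).

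For mutant on the diet against mutant, the smallest unadjusted exact p, 0.0333, belonged to 2 regions. One is inside Slit1, chr19:41618259-41618499, with matched summits in 2, 1, 4 and 6 libraries in the order control, mutant, control on the diet, mutant on the diet. The other lies outside Neo1, chr9:59060378-59060476, with 3, 3, 2 and 0. A Robo1 region, chr16:72089003-72089072, had 2, 4, 1 and 1 (unadjusted exact p = 0.0476). The neighbouring Robo1 region less than 1 kb away, chr16:72088184-72088378, had 2, 2, 3 and 5, and all 19 libraries had a deposited summit within 1 kb. With all deposited summits the Slit1 region was open in 4, 3, 5 and 6 libraries, the Neo1 region in 4, 4, 3 and 4, and the Robo1 region in 2, 4, 1 and 1.

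For control on the diet against control all 10 regions had an unadjusted exact p of 0.0476, 5 with more libraries on the diet and 5 with fewer. Those with more were 2 distal regions of Epha4 and 1 each of Epha5, Efna5 and Sema5a. The Epha4 pair, chr1:77275411-77275483 and chr1:77592386-77592569, flank the gene 91735 and 77370 bp from its nearer end. They had matched summits in 0 controls each and in 4 controls on the diet each, with 5 and 4 mutants on the diet. Those with fewer belonged to Plxna2, Plxna4, Ntn1, Neo1 and Ephb3. With all deposited summits the Epha4 regions were open in 2 and 3 controls and in 4 and 5 controls on the diet.

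Many sites without a matched summit had a weaker one. Among 2294 combinations of a guidance region and a library without a matched summit, 848 (37.0%) had a deposited summit inside the region and 85.8% had one within 1 kb. Regions built from all deposited summits numbered 1036 for the guidance genes of 150489 in all. Of these, 111 (10.7%, against 13.7% over all genes) were open in every library and 65 (6.27%, against 15.9%) were within 1 kb of an end. The smaller share at ends and in every library thus held in the full lists too.

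Other genes of the pathway were read from lists of 21 further ligands, 16 further receptors and 45 genes that carry guidance signals inside the cell. A matched end summit in every library was present at 6 ligands, among them Sema4a, Sema4b and Efna4, and at 3 receptors, Epha10, Ephb4 and Flrt3. The other further Eph receptors were open at an end in fewer libraries: Epha1 in 4, Epha2 in 13, Epha6 in 0, Epha8 in 1 and Ephb6 in 2. Signalling genes had a matched end summit in every library at 28 of 45 (62.2%). That was above the 15 of 43 (34.9%) of the members and the 29.7% of all genes, as a description without a test. Counting any matched summit within 1 kb it was 30 of 45, against 15 of 43 and 36.6% of all genes. No gene of these lists passed limma's adjusted threshold in any comparison, of 15 ligands, 10 receptors and 41 signalling genes fitted. For mutant against control, genes with small p-values included Mical1, which carries semaphorin signals to actin, with 0.37 ± 0.13 (SE), and Vav2, an exchange factor downstream of Eph receptors, with −1.11 ± 0.40 (SE). In both the limma adjusted p was 0.671. Among the further ligands Sema6c had −0.37 ± 0.13 (SE) there and 0.37 ± 0.12 (SE) for mutant on the diet against mutant.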

How the data were processed

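Bulk ATAC-seq libraries of Prom1+ forebrain progenitors were deposited as lists of peak summits, 1 list per library. Per the submitters' processing notes, BWA and MACS2 were used on mouse build mm10 (GRCm38), and Signac and DiffBind are also named. The fifth column, holds the score the authors deposited per summit, a −log10 q value with a smallest value near 1.30 in each library. No read counts were used, so depth is unknown. List length is given in its place, 48323 to 122591 summits apart from the shortest list (mutant on the diet 4).

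Each library was cut to its best-scoring summits, as many as the shortest list holds (the matched summits). Summits were assigned to the nearest end of a protein-coding gene (RefSeq, GRCm38.p6) within 100 kb. Regions joined summits at most 200 bp apart from at least 2 libraries. limma 3.58.1 (trend, robust) in R 4.3.3 was fitted to log2(summits + 0.5) with 1 coefficient per group, and its adjusted p-values are Benjamini-Hochberg values over 10826 genes, 3261 of which had no spread inside any group. Regions were compared with Fisher's exact test (scipy 1.17.1). Both were also run on simulated data, with other group sizes or simpler counts than these libraries have. Those runs do not measure what the tests could detect here. Groups came from the titles. Members and gene lists were chosen with earlier results of these data known.

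Genes were named by rule: in each comparison the 3 members with the smallest limma p in either direction, in each family the highest and lowest mean, members with an end summit in no library or in every library (up to 10), and members whose regions had an exact p under 0.05 (up to 6 per comparison). Genes of the further lists followed the first rule with 2 per direction, as examples, and 1 result among them is not reported here. Other members are given by their values without selection. The alternatives were all deposited summits, the best-scoring 0.5 of the matched ones, a pseudocount of 1, no filter, no trend or robust step, assignment within 50 kb or by gene body, other end windows and chaining distances, a replicate block, and each library left out in turn. Leaving out mutants 3 and 4 together was added after the data were seen.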

Additional observations from a re-analysis of the deposited data

Results flagged for a closer look

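Of 111 groups of libraries examined, 13 had 1 library far from the others of its group. Gene counts were examined only with a range of at least 2. The cutoff is made for continuous values, and most marks fell on small whole counts with ties. How many marks chance alone would give is therefore not known. In controls these were control 1 with 3 matched summits at Ephb1 and 10 at Slit1, control 3 with 8 at Sema5a, and control 4 with 4 at Nrp2. Mutant on the diet 6 stood apart most often, with 19.4% of its guidance summits within 1 kb of a gene end, 31 guidance genes with a matched end summit, 7 matched summits at Epha4, 3 at Robo1 and 3 at Slit2. Mutant on the diet 4, the shortest list, had a deposited end summit at 22 guidance genes and 3 matched summits at Efna1. Mutant on the diet 5 had 9 matched summits at Epha3, and mutant on the diet 2 had 4 at Sema3a.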

How the results depend on the processing

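The number of summits kept was the choice that mattered most. Of 832 alternative values of 30 differences at named guidance genes, 815 did not reverse (4 of them were 0) and 17 reversed, all 17 with all deposited summits or with the shorter lists, which hold the best-scoring 0.5 of the matched summits, and 15 of the 30 differences never reversed. No guidance gene was called under any alternative, and the lowest adjusted limma p of a named one was 0.15. With all deposited summits the reversed values were, for mutant against control, −0.042 at Efnb2 and 0.16 at Efna1; for control on the diet against control, −0.41 at Sema3e, −0.073 at Slit2 and −0.36 at Efnb2; for mutant on the diet against mutant, −0.58 at Slit1, −0.44 at Slit2 and −0.31 at Efna1; for mutant on the diet against control on the diet, −0.47 at Unc5c and −0.27 at Nrp2; and for the interaction, −0.26 at Slit1 and −0.023 at Unc5b. With the shorter lists they were −0.11 at Sema3e for control on the diet against control, −0.094 at Slit2 and 0.37 at Efnb2 for mutant on the diet against mutant, and −0.29 at Slit2 and 0.067 at Plxna2 for mutant on the diet against control on the diet. The cause was not tested. List lengths differ between groups in the full lists, which enters every difference computed from them.

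Over all genes, limma called 2 for control on the diet against control with all deposited summits, with the shorter lists and without the trend and robust step, and 3 without the filter, where the main count was 0. For mutant on the diet against mutant (main count 2) it called 0 with all deposited summits and with the replicate block, and 1 with the shorter lists, a pseudocount of 1, assignment within 50 kb, the gene body and without mutants 3 and 4. For mutant on the diet against control on the diet (3) it called 0 with all deposited summits, the shorter lists, the replicate block and the gene body, and for the interaction (1) it called 0 under these and also within 50 kb and without mutants 3 and 4. For mutant against control (0) it called 1 without mutants 3 and 4. Leaving out 1 library gave 0 to 2 calls for mutant against control, 0 to 2 for control on the diet against control, 1 to 7 for mutant on the diet against mutant, 1 to 4 for mutant on the diet against control on the diet and 0 to 2 for the interaction. The replicate block used the numbers in the titles. Over 25 pairs of libraries with the same number the correlation of deviations from the group means ran from −0.138 to 0.157. Of 19 libraries, 4 correlated best with their own number. Over 109 pairs with different numbers it ran from −0.229 to 0.375, the highest for mutant 1 with mutant on the diet 6. What else the libraries may share was not tested.

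Guidance regions numbered 1036 with all deposited summits and 129 in the shorter lists, those open in every library 111 and 29, and those at an end 65 and 22. The share of guidance summits within 1 kb of an end (15.9%) was 8.12% and 21.4% under the same 2 settings, 21.1% with a window of 2 kb and 23.1% with assignment within 50 kb. Mean guidance summits per library in control, mutant, control on the diet and mutant on the diet were 635.75, 666.5, 516 and 425.5 with all deposited summits and 69.25, 83.75, 75.6 and 76.2 in the shorter lists, against 173.25, 185, 174.6 and 176.7. Counts of summits say whether a site was called, not how accessible it was, and no read count was at hand to limit a difference at a single site.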
